A study of Mus musculus with 6 samples.

Results

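The snoRNA host transcripts Gas5, Snhg3, Snhg5, Snhg6, Snhg8, Snhg12, Snhg15, Snhg16 and Snhg17 were examined in cGAS-/- neutrophils with and without lipopolysaccharide (LPS), the outer membrane component of Gram-negative bacteria that is sensed by TLR4. These 9 genes were taken by symbol, with earlier results of these data known. All 9 were present among the 38739 genes of the table and among the 23049 genes above 0 in at least 1 of the 6 samples. The cells were peritoneal neutrophils of cGAS knockout mice (strain given as C57B/L6), drawn into the peritoneum with thioglycolate and kept in culture medium. In the untreated group (n = 3) they received medium for 2 h, and in the LPS group (n = 3) they received LPS at 500 ng/mL for 2 h, a dose given in the sample labels, whereas the methods of the study state a lower one. Both groups carry the knockout, and no wild-type sample was analysed here, so the data show what LPS did in cells without cGAS and not what the knockout did. The labels do not say whether the 3 samples of a group came from separate mice, and the p values therefore measure only the spread between these samples.

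Small nucleolar RNAs (snoRNAs) guide the chemical modification of ribosomal RNA. Box C/D snoRNAs carry the boxes TGATGA and CTGA (in DNA letters) and direct methylation by fibrillarin, while box H/ACA snoRNAs end with the triplet ACA and direct the change of uridine to pseudouridine by dyskerin. Most of them in mammals are cut out of introns, and the gene that carries the intron is the host. The spliced RNA that remains of a noncoding host is often short-lived, because ribosomes engage it and nonsense-mediated decay removes it. Many hosts start transcription at a run of pyrimidines, as do the genes of ribosomal proteins, whose translation follows mTOR.

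The 9 hosts held 26 annotated snoRNA genes on their own strand (GENCODE M39, GRCm39), of which 15 were assigned to box C/D, 10 to box H/ACA and 1 to neither, by name or by the boxes in the sequence. Gas5 (growth arrest specific 5, also known as a decoy of the glucocorticoid receptor) held 9 snoRNA genes, more than any other member, and 8 of them were box C/D. Snhg5, Snhg6 and Snhg16 held box C/D snoRNAs alone, Snhg3, Snhg8, Snhg15 and Snhg17 held box H/ACA snoRNAs alone, and Snhg12 held 3 box H/ACA and 1 box C/D.

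**Figure D1:**
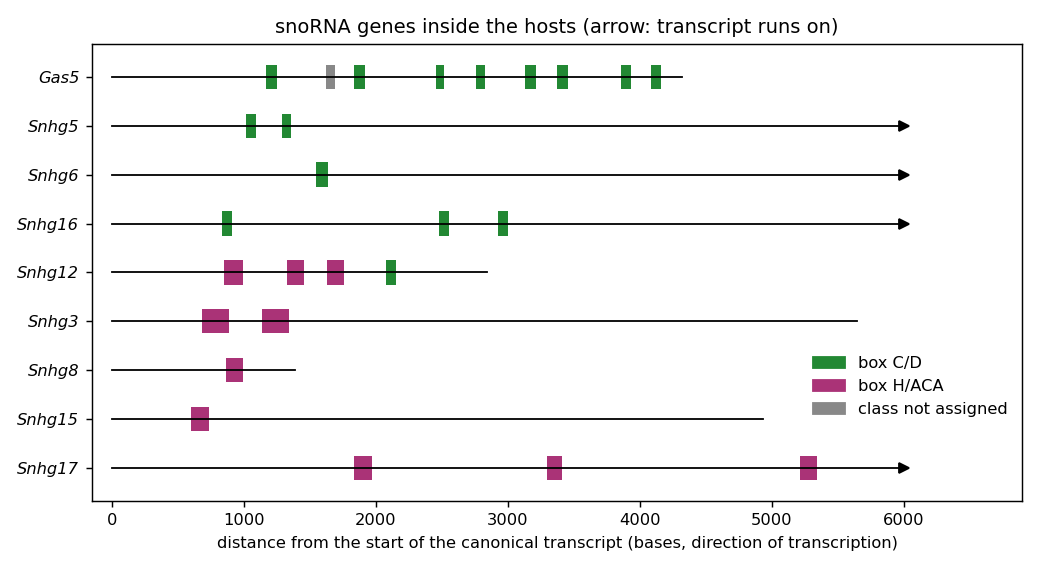
Position of the 26 snoRNA genes inside the 9 hosts, as the distance in bases from the start of the canonical transcript in the direction of transcription, with each bar as long as the snoRNA gene. Gas5 carries 9 snoRNA genes along its 4326-base locus, Snhg6, Snhg8 and Snhg15 carry 1 each, and arrows mark transcripts that run beyond 6000 bases.

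The following 4 snoRNA sequences show what the hosts carry (genome sequence of GRCm39, in DNA letters, 5′ to 3′, with the C and D boxes or the ACA triplet in capitals). Snord47 lies in an intron of Gas5 (chr1:160865652-160865728, + strand), Snord87 in an intron of Snhg6 (chr1:10012688-10012774, - strand), Snora16a in Snhg12 (chr4:132036775-132036911, + strand) and Snora9 in Snhg15 (chr11:6478033-6478165, - strand). Snord87 and Snora16a are shown because they were the only snoRNAs of the hosts with a value above 0, Snord47 stands for the host with the highest level and Snora9 for the host with the largest difference after LPS. Snora16a and Snora9 overlap an exon of the canonical transcript of their host.
Snord47: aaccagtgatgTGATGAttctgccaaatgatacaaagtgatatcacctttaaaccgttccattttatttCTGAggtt
Snord87: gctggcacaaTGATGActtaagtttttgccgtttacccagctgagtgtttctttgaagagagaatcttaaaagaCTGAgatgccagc
Snora16a: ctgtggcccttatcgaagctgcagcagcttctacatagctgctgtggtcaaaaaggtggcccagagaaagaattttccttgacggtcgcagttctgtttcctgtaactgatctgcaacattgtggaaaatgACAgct
Snora9: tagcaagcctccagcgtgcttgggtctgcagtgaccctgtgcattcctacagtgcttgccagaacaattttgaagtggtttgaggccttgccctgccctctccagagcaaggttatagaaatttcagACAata

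RefSeq start sites were available for 8 of the 9 members, with 10 promoter windows of 300 bases. A pyrimidine tract (C followed by at least 4 further C or T, beginning within 10 bases of the start) was found in 6 of the 8 members. By window this was 6 of the 10, against 30.72% of 32851 windows of the same length over all genes. TATAAA or TATATA at 16 to 40 bases before the start was found in 4 of the 8 members (Gas5, Snhg5, Snhg8 and Snhg12). By window this was 4 of the 10, against 2.734% of all windows. In the 4 stretches printed here, of 90 bases each around the start on the transcribed strand, capitals mark the pyrimidine tract, the TATA sequence and, in Snhg15, the palindrome CACGTG, known as the E-box bound by Myc-type factors. They are those of Gas5 (chr1:160862676-160862765, + strand, the second of its RefSeq starts), Snhg12 (chr4:132035929-132036018, + strand), Snhg8 (chr3:123301956-123302045, - strand) and Snhg15 (chr11:6478731-6478820, - strand), from the RefSeq promoter table of GRCm38.p6 placed on GRCm39 by exact match.
Gas5: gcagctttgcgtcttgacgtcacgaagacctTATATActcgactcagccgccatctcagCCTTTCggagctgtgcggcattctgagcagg
Snhg12: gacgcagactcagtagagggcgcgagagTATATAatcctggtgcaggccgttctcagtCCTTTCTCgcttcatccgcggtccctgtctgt
Snhg8: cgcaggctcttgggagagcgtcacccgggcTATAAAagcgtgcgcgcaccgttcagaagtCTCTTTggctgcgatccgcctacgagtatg
Snhg15: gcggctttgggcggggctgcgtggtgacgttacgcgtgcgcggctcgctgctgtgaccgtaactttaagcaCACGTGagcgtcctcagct

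Snhg15 and Snhg17 were the members with no tract in any window. Searched on both strands over the 300 bases, CACGTG was found in Snhg15 alone among the members (7.15% of all windows), TGACGTCA, the cAMP response element, in Gas5 and Snhg15 (1.79%), and the NF-kB consensus in Snhg8 (8.459%). These matches describe letters and were not tested as binding sites.

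The deposited values were taken to be TPM (a level corrected for transcript length and library size), as the mean over a gene's transcripts after division by a factor of the sample, and are called scaled TPM here. The decimals on which this reading rests lie in an earlier stretch of the table that holds 1 of the 9 members, and for the other 8 it is assumed. The number of reads is unknown, and levels compared between genes rest on the transcript set the authors used, whose release is not given in the sources used here. All values of a sample summed to between 603599 and 713384 without LPS and between 404675 and 465904 with it, and protein-coding genes made up 21.0% to 28.3% and 49.7% to 58.9% of these sums. The targeted gene Cgas stood at 0.180 to 0.307 in the untreated and 0.0286 to 0.184 in the LPS samples. Neutrophil markers (12 of 16 in the table, none at 0 in all samples) summed to 9459 to 26897 and 15992 to 53883. Most of these sums was S100a8 and S100a9. Of the 12 markers 6 had a log2 fold change above 0 after LPS and 6 below 0, with a median of -0.24. Macrophage markers (9 of 12 in the table) summed to 180 to 283 and 320 to 440, B cell markers (6 of 7) to 143 to 545 and 67.3 to 239, and erythroid markers (5 of 6) to 21.5 to 5629 and 165 to 4651. In bulk RNA, fewer cells of a type and less RNA per cell cannot be told apart.

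Among the untreated samples Gas5 had the highest level of the hosts, at 13.0 ± 1.74 scaled TPM (SD, n = 3). Snhg12 (5.49 ± 3.51), Snhg8 (5.03 ± 4.25), Snhg6 (4.57 ± 1.76), Snhg3 (4.14 ± 3.50) and Snhg15 (2.82 ± 1.88) followed, and neighbours among these 5 did not differ beyond their SD. Snhg5 (1.45 ± 0.699), Snhg17 (0.685 ± 0.866) and Snhg16 (0.289 ± 0.449) were lowest. After LPS the order of the first was Gas5 (13.9 ± 5.81), Snhg15 (12.7 ± 6.94) and Snhg8 (11.2 ± 3.17), again within their SD. The sum over the 9 hosts was 36.4, 36.4 and 39.5 scaled TPM without LPS and 73.7, 28.8 and 62.8 with it, so that LPS replicate 2 lay below every untreated sample and the other LPS samples above them.

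No host passed the limits used in the study (a log2 fold change beyond 2 at an unadjusted p under 0.01) in either direction. Over all 23049 genes, limma called 2.99% at those limits, 389 higher and 301 lower after LPS (1.69% and 1.31%). With every sample scaled to the same sum over all genes the split was 796 higher and 146 lower, and with the same sum over protein-coding genes it was 220 and 522, while no host was called with either. At a Benjamini-Hochberg adjusted p under 0.05 the count was again 0 of 9 hosts, against 1.84% of all genes (0.894% higher and 0.946% lower). At an unadjusted p under 0.05, 1 of 9 hosts was higher (Snhg15) and 0 lower, against 10.3% and 6.66% of all genes. The log2 fold change was above 0 in 7 hosts and below 0 in 2, against 12200 and 10849 of the 23049 genes tested. The median over the hosts was 0.38, beside 0.01 over all genes tested, which include genes near 0. Among genes with a mean of at least 1 the median was 0.13, and with a mean of at least 5 it was 0.17. The hosts that passed these filters had medians of 0.23 and 0.76.

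**Figure D2:**
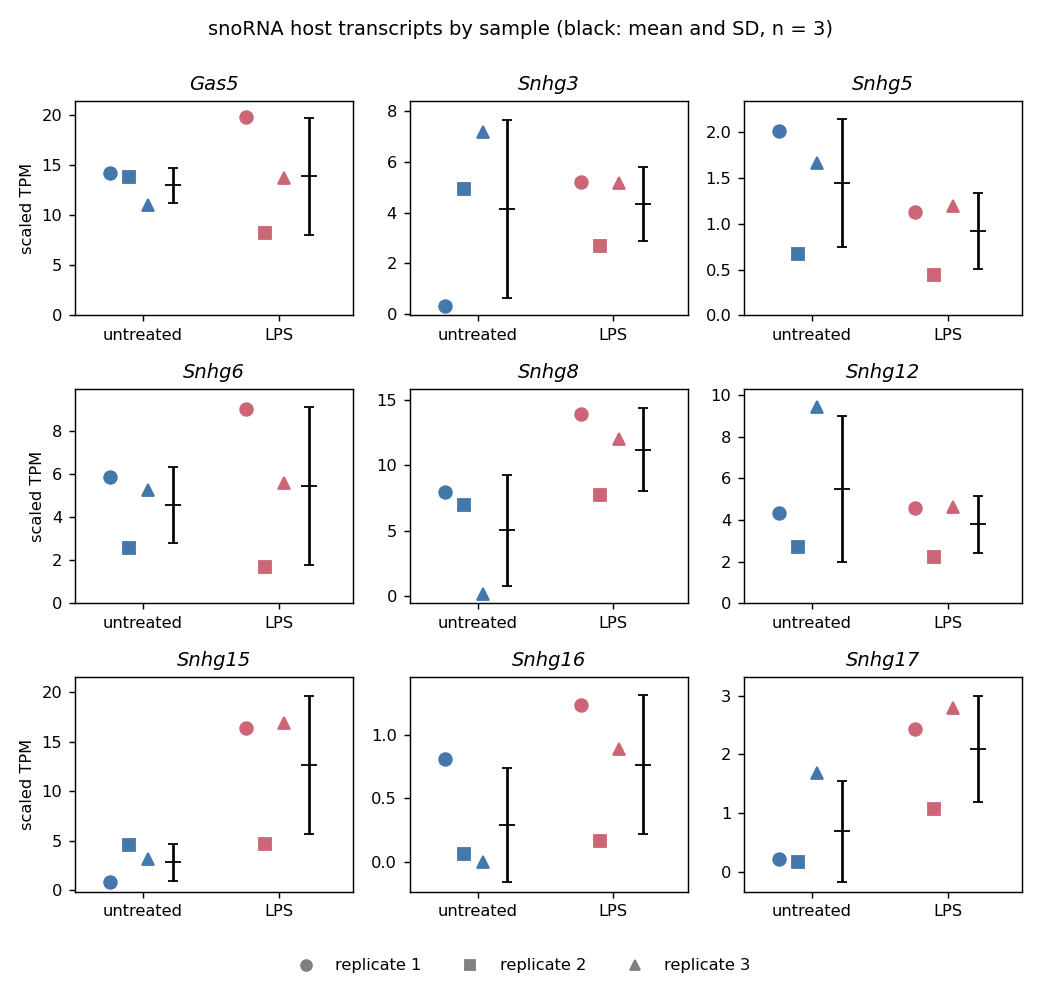
Scaled TPM of the 9 hosts in each sample on linear axes, with symbols for replicates 1 to 3 (a number names a sample and pairs none) and the mean and SD of the 3 samples of a group in black. The LPS samples of Snhg15 (4.65 to 16.9) lie above its untreated samples (0.804 to 4.52), the groups of the other 8 hosts overlap, and replicate 2 is the lowest LPS sample in all 9 panels.

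Among the hosts of box H/ACA snoRNAs, Snhg15, which carries Snora9, showed the largest difference. Its level was 0.804, 4.52 and 3.14 scaled TPM in untreated replicates 1 to 3 and at 16.4, 4.65 and 16.9 in the LPS replicates. The groups did not overlap, but LPS replicate 2 exceeded the highest untreated sample by little, and Snhg15 was the only host whose groups were apart (1 of 9 higher and 0 lower, against 13.1% and 9.75% of all genes). The mean was 2.82 ± 1.88 against 12.7 ± 6.94 (SD, n = 3), a ratio of 4.49. The log2 fold change of log2(scaled TPM + 1) was 1.81 with a standard error of 0.65 and a 95% interval of 0.23 to 3.38 (limma, adjusted p = 0.230). When 1 sample was left out, the log2 fold change was 1.34 to 2.35. It was lowest without untreated replicate 1 (1.34, adjusted p = 0.335), LPS replicate 3 (1.52, adjusted p = 0.555) or LPS replicate 1 (1.54, adjusted p = 0.541), and in these cases, as without untreated replicate 3 (1.94, adjusted p = 0.279), the unadjusted p was no longer under 0.05. It was highest without LPS replicate 2 (2.35, adjusted p = 0.138). With the same sum over protein-coding genes the log2 fold change was 1.44 (limma, unadjusted p = 0.0898, adjusted p = 0.380). With the same sum over all genes it was 2.30 (limma, unadjusted p = 0.0145, adjusted p = 0.125). Without replicate 2 of both groups it was 2.69 (adjusted p = 0.123), the only setting in which a host passed the limits of the study. In 183 bases an annotated transcript of Snhg15 is 98.9% identical to a transcript of Pcdh7, which was at most 0.241 scaled TPM.

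Snhg8 carries Snora24, a guide of 18S ribosomal RNA modification. Its values were 7.93, 7.01 and 0.157 scaled TPM in the untreated and 13.9, 7.73 and 12.0 in the LPS samples. Untreated replicate 3 was far below the others, and LPS replicate 2 lay between the untreated values. The log2 fold change was 1.45 (SE 0.84, 95% interval -0.60 to 3.50, adjusted p = 0.441). Without untreated replicate 3 it was 0.49 (adjusted p = 0.496).

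Snhg17 was low in both groups, at 0.209, 0.162 and 1.68 scaled TPM without LPS and 2.43, 1.07 and 2.79 with it. Untreated replicate 3 exceeded LPS replicate 2, and the groups overlapped by these samples. The ratio of the means was 3.06, and the log2 fold change was 0.94 (SE 0.47, 95% interval -0.21 to 2.10, adjusted p = 0.374). The pseudocount of 1 understates fold changes at this level. A stretch of 367 bases in an annotated transcript of Snhg17 is identical in Gm75379, a gene not used here.

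Snhg3 carries Snora73a and Snora73b, the snoRNAs known as U17, which take part in the processing of 18S ribosomal RNA. It stood at 0.315, 4.91 and 7.18 scaled TPM in the untreated and 5.21, 2.67 and 5.16 in the LPS samples. Untreated replicate 1 was the lowest of all 6 samples and untreated replicate 3 the highest. The log2 fold change was 0.38 (SE 0.74, 95% interval -1.42 to 2.18, adjusted p = 0.791), and without untreated replicate 1 it was -0.42. Snhg3 lies within Rcc1, the gene of the nucleotide exchange factor of Ran, on the same strand with starts 69 bases apart. In 332 bases, the length of its canonical transcript, an annotated transcript of Snhg3 is identical to a transcript of Rcc1. A further gene, Gm17300, is identical to Snhg3 over 313 bases and reached 8.23 scaled TPM, above the highest value of Snhg3. Reads from these stretches could be divided between the genes in the authors' counting, and the values of Snhg3 are uncertain by this. Rcc1 was at 0.141, 1.00 and 1.21 scaled TPM in the untreated and 1.86, 1.68 and 2.23 in the LPS samples, without overlap, at a log2 fold change of 0.76 (adjusted p = 0.357).

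Among the hosts of box C/D snoRNAs, Gas5, the most abundant member, had the smallest difference. It stood at 14.2, 13.8 and 11.0 scaled TPM in the untreated and 19.8, 8.16 and 13.6 in the LPS samples. The LPS samples lay on both sides of the untreated ones. The log2 fold change was 0.02 (SE 0.38, adjusted p = 0.984), and the 95% interval of -0.92 to 0.96 leaves room for a change of nearly 1 on the log2 scale either way.

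Snhg6, the host of Snord87, ranged from 2.56 to 5.87 scaled TPM in the untreated samples and from 1.70 to 9.05 in the LPS samples. The LPS samples again lay on both sides, with a log2 fold change of 0.07 (SE 0.58, 95% interval -1.33 to 1.48, adjusted p = 0.954). Snhg5, the host of Snord50a and Snord50b, was at 2.01, 0.666 and 1.67 in the untreated and 1.13, 0.443 and 1.20 in the LPS samples. Its log2 fold change was -0.33 (SE 0.38, 95% interval -1.26 to 0.60, adjusted p = 0.647), and it was -0.13 without LPS replicate 2, -0.16 without untreated replicate 1 and -0.58 without untreated replicate 2. Parts of its annotated transcripts are nearly identical to 9330159M07Rik (96.8% over 250 bases, at most 3.66 scaled TPM) and 9430037G07Rik (95.1% over 288 bases, at most 1.16). In Gm67903, a gene not used here, 516 bases are identical. The values of Snhg5 are uncertain by reads from these genes.

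Snhg16, the host of the Snord1 family, was the lowest member. It stood at 0.806, 0.0595 and 0 scaled TPM in the untreated and 1.24, 0.165 and 0.892 in the LPS samples, and the groups overlapped. The log2 fold change was 0.46 (SE 0.37, 95% interval -0.44 to 1.35, adjusted p = 0.551), and it was 0.26 to 0.73 when 1 sample was left out (0.26 without LPS replicate 1, 0.30 without untreated replicate 3, 0.73 without untreated replicate 1 or LPS replicate 2). The pseudocount of 1 understates fold changes at this level too, and with 0.1 the log2 fold change was 1.54 (limma, adjusted p = 0.551). Snhg12, which carries snoRNAs of both classes, was at 4.33, 2.69 and 9.43 in the untreated and 4.57, 2.22 and 4.61 in the LPS samples. Its untreated replicate 3 was above every other sample, and the log2 fold change was -0.34 (SE 0.49, 95% interval -1.54 to 0.85, adjusted p = 0.713), which was 0.07 without that replicate.

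Arranged by the class of snoRNA, an arrangement made after the values were seen and not tested, the hosts of box H/ACA snoRNAs alone had log2 fold changes of 0.38 to 1.81 and those of box C/D snoRNAs alone of -0.33 to 0.46, while Snhg12, which carries 3 box H/ACA snoRNAs and 1 box C/D, had -0.34. All of these intervals but that of Snhg15 included 0. The ranges of the classes overlapped. With a pseudocount of 0.1 they were 0.78 (Snhg3) to 2.21 (Snhg15) for box H/ACA alone and -0.57 (Snhg5) to 1.54 (Snhg16) for box C/D alone. Snhg8, Snhg15, Snhg16 and Snhg17 kept a log2 fold change above 0 under every alternative run that tested them. This was 15 of 17 runs for Snhg16 and 16 for Snhg17, which the filters on the mean left out of the others. The signs of Gas5, Snhg3, Snhg5, Snhg6 and Snhg12 each changed under at least 1 of them.

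**Figure D3:**
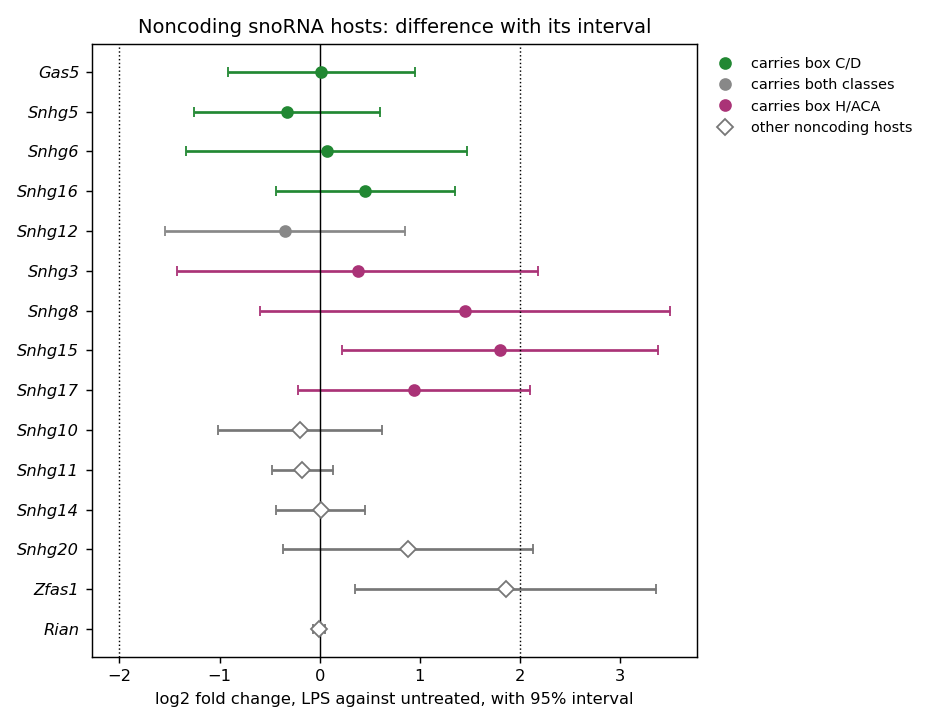
Log2 fold change of log2(scaled TPM + 1), LPS against untreated, with the 95% interval, for the 9 hosts (filled circles, coloured by the class of snoRNA they carry) and 6 other noncoding hosts (open diamonds), with dotted lines at the limits of -2 and 2. The intervals of Snhg15 (0.23 to 3.38) and Zfas1 (0.36 to 3.36) lie above 0 and the others include it.

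LPS replicate 2 was the lowest LPS sample in 9 of 9 hosts. The same sample was the lowest in 44.6% of the 11073 genes above 0 in all samples, and in 47.9% of the 6834 of these with a mean in the range of the hosts. The level in LPS replicate 2 divided by the mean of LPS replicates 1 and 3 was 0.155 (Snhg16) to 0.596 (Snhg8), with a median of 0.409 over the hosts, beside 0.942 over those 11073 genes. Among the related lists, LPS replicate 2 was the lowest LPS sample in 24 of 26 protein-coding snoRNA hosts, 6 of 6 core proteins of snoRNA particles, 8 of 9 assembly factors and 9 of 11 factors of intron release and trimming. It was the lowest in 3 of 6 other noncoding hosts, 7 of 15 factors of nonsense-mediated decay, 5 of 12 genes of pyrimidine tract translation and 7 of 14 LPS response genes. In the untreated samples no such order was seen, since replicate 1 was lowest in 2 hosts, replicate 2 in 4 and replicate 3 in 3. The marker sums of some cell types moved with this and others did not. In LPS replicates 1 to 3 the neutrophil markers summed to 18162, 53883 and 15992 scaled TPM, the B cell markers to 239, 67.3 and 226 and the T cell markers (6 of 8 in the table, none at 0 in all samples) to 13.3, 5.48 and 15.3. The macrophage markers, at 427, 440 and 320, were highest in replicate 2. The mast cell markers, at 85.1, 83.1 and 132, were alike in replicates 1 and 2. Most of the neutrophil sum was S100a9 (10651, 28393 and 8899) and S100a8 (6300, 19851 and 5536). Most of the macrophage sum was Cd68 (303, 381 and 230) and most of the mast cell sum Hdc (61.4, 78.1 and 82.6). Replicate 2 was the lowest LPS sample in 2 of 12 neutrophil, 6 of 9 macrophage and 2 of 4 mast cell markers. The erythroid (572, 165 and 4651), dendritic cell (67.7, 35.8 and 55.9) and eosinophil sums (5.31, 2.02 and 4.04) were also lowest in replicate 2. The part of these sums in the low values of the hosts was not tested. In the untreated samples the neutrophil sum was also highest in replicate 2 (9745, 26897 and 9459).

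**Figure D4:**
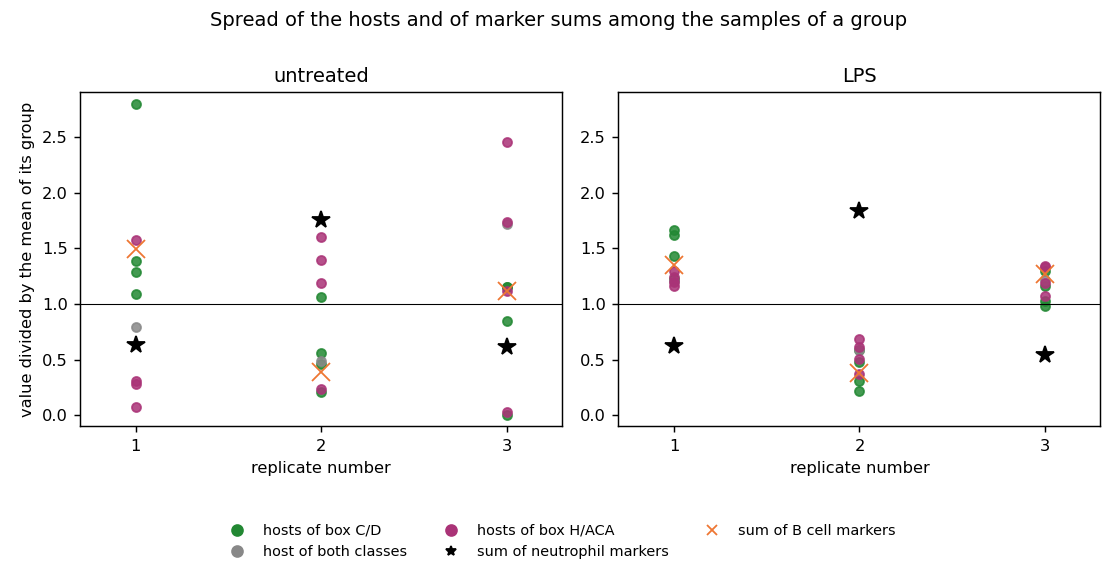
Each host's scaled TPM divided by the mean of its group (points), by replicate number in the untreated and LPS samples, with the sums of neutrophil markers (star) and B cell markers (cross) on the same linear scale. In LPS replicate 2 all 9 hosts and the B cell sum lie below 1 and the neutrophil sum lies above it, while the hosts scatter on both sides of 1 in each untreated sample.

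The snoRNAs themselves were hardly seen. All 26 snoRNA genes inside the hosts were in the table, and 2 of them were above 0, each in 1 sample. Snord87 was at 8.29 scaled TPM in untreated replicate 3, in which its host Snhg6 was at 5.28, and Snora16a was at 7.22 in untreated replicate 1, in which its host Snhg12 was at 4.33. The remaining snoRNA genes were listed at 0 in all samples, which says nothing of the level of the snoRNAs, since the libraries were made with an mRNA kit and the number of reads is unknown. The snoRNA genes are 60 to 205 bases long.

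Among the neighbours, Zbtb37 was the only protein-coding gene found head-to-head with a host. Its start lies 625 bases from that of the canonical Gas5 transcript, which is not the RefSeq start printed above. Zbtb37 stood at 1.58, 0.450 and 2.41 scaled TPM in the untreated and 0.736, 1.34 and 0.940 in the LPS samples. Its log2 fold change was -0.23 (adjusted p = 0.775). Sgk3, which overlaps Snhg6 on the opposite strand, went from 3.02, 3.70 and 3.52 to 0.773, 0.988 and 1.06, without overlap, and did not pass the limits of the study (log2 fold change -1.19, adjusted p = 0.0988). The libraries were strand-specific, but whether the quantification used strand is not given in the sources used here.

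Of 12 other noncoding hosts, 6 were in the table, all above 0 in at least 1 sample, and none was called (median log2 fold change 0.00). Zfas1, the host of the Snord12 family, was at 0.528, 4.99 and 1.80 scaled TPM in the untreated and 14.3, 5.32 and 11.7 in the LPS samples. As in Snhg15, LPS replicate 2 was just above the highest untreated sample, and the log2 fold change was 1.86 (SE 0.62, adjusted p = 0.198). Without untreated replicate 2 Zfas1 passed the limits of the study (log2 fold change 2.37, adjusted p = 0.0987), while its log2 fold change fell to 1.39 without untreated replicate 1 (adjusted p = 0.278), 1.60 without LPS replicate 1 (adjusted p = 0.489) and 1.74 without LPS replicate 3 (adjusted p = 0.481). Snhg11 was lower without overlap, at 0.303 to 0.421 against 0.213 to 0.239, with a log2 fold change of -0.17 (adjusted p = 0.551). Snhg20 ranged from 0 to 2.14 and from 1.39 to 2.12 (log2 fold change 0.88, adjusted p = 0.443), and its log2 fold change was 1.40 without untreated replicate 3 (adjusted p = 0.120) and 0.57 without untreated replicate 2 (adjusted p = 0.579). Snhg10, Snhg14 and Rian were low, with log2 fold changes of -0.20, 0.01 and -0.01.

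Protein-coding genes also carry snoRNAs, chiefly those of ribosomal proteins and translation factors. Of 32 such hosts, 26 were tested, and 1 was called higher and 0 lower, against 1.69% and 1.31% of all genes. Their log2 fold changes ran from -1.61 to 2.78 with a median of 0.70. Of these, 20 were above 0 and 6 below, against 12200 and 10849 of all 23049 genes tested. Groups without overlap were 6 higher and 2 lower, against 13.1% and 9.75% of all genes. Rpl12, a protein of the large ribosomal subunit, rose from 1.56, 1.82 and 1.98 scaled TPM to 26.5, 10.8 and 20.4 (log2 fold change 2.78, SE 0.39, adjusted p = 0.0351). It passed the limits of the study whichever sample was left out, at adjusted p values of 0.0583 to 0.169. Ribosomal protein genes have many pseudogene copies, so its level is uncertain by shared reads.

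The proteins that bind, build and trim snoRNAs were examined next. Of the 8 core proteins of snoRNA particles 6 were tested, and 1 was called higher and 0 lower, against 1.69% and 1.31% of all genes. The median log2 fold change of the 6 was 2.33. Nhp2, which binds box H/ACA snoRNAs, went from 7.10, 2.83 and 0.218 scaled TPM to 42.7, 16.8 and 40.9 without overlap (log2 fold change 3.25, SE 0.77, adjusted p = 0.101). That call was lost without untreated replicate 2 (adjusted p = 0.142), LPS replicate 1 (adjusted p = 0.289) or LPS replicate 3 (adjusted p = 0.300). Of 13 assembly factors 9 were tested, and 1 was called higher and 0 lower, beside the same shares of all genes. All 9 log2 fold changes were above 0, against 12200 of all 23049 genes tested, and the median of the 9 was 1.11. Ruvbl1, an ATPase of the complex that loads the core proteins, went from 2.06, 0 and 0.490 to 12.8, 6.32 and 12.7 (log2 fold change 2.75, adjusted p = 0.0638), and was called no longer without LPS replicate 1 (adjusted p = 0.219) or LPS replicate 3 (adjusted p = 0.234).

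Of 15 factors that release introns or trim snoRNA ends 11 were tested, and 0 were called in either direction (median 0.30). Exosc3, a subunit of the RNA exosome, had a log2 fold change of 1.26 (adjusted p = 0.244; 0.80 without untreated replicate 2) and Xrn1, the cytoplasmic 5′ to 3′ exonuclease, of -1.20 (adjusted p = 0.103). Among 15 of 16 factors of nonsense-mediated decay, which acts on the spliced RNA of the hosts, 0 were called at the limits of the study (median 0.42). Upf2, which bridges the decay factors Upf1 and Upf3, was lower at the adjusted limit, with 30.4, 38.5 and 35.3 scaled TPM in the untreated and 8.03, 10.7 and 8.21 in the LPS samples (log2 fold change -1.84, SE 0.28, adjusted p = 0.0400). Its adjusted p was 0.0566 to 0.196 when any 1 sample was left out. Magoh, of the exon junction complex, was at 39.4, 0.969 and 0.810 in the untreated and 25.8, 11.8 and 21.9 in the LPS samples (log2 fold change 1.92, adjusted p = 0.501). Untreated replicate 1 was above every other sample, and without it Magoh passed the limits (log2 fold change 3.40, adjusted p = 0.0488), whereas without untreated replicate 3 or 2 the log2 fold change was 1.16 or 1.22.

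Of 17 genes that control the translation of mRNAs starting with pyrimidine tracts 12 were tested and 0 were called (median 0.81). Larp1, which binds such tracts, went from 7.47, 0.562 and 2.31 scaled TPM to 21.4, 8.37 and 20.3 (log2 fold change 2.22, adjusted p = 0.183), and passed the limits without untreated replicate 1 (2.86, adjusted p = 0.0943). Tsc1, a brake on mTOR, had a log2 fold change of -0.44 (adjusted p = 0.551), which was -0.14 without untreated replicate 2.

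At an unadjusted p under 0.05, which 10.3% of all genes passed as higher and 6.66% as lower, the counts were 1 higher and 0 lower of 6 other noncoding hosts, 7 and 2 of 26 protein-coding hosts, 4 and 0 of 6 core proteins and 4 and 0 of 9 assembly factors. They were 1 and 2 of 11 factors of intron release and trimming, 2 and 1 of 15 decay factors and 3 and 0 of 12 genes of pyrimidine tract translation.

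For scale, 14 of 15 genes known to respond to LPS were tested, of which 10 were called higher and 0 lower. Their median log2 fold change was 3.09. The chemokines Cxcl3 (log2 fold change 5.57, adjusted p = 0.0141) and Cxcl1 (4.90, adjusted p = 0.0325), the cytokine Il1a (5.23, adjusted p = 0.0715) and Ptgs2, the inducible cyclooxygenase (4.33, adjusted p = 0.0462), were the largest. The call of Il1a was lost without untreated replicate 3, LPS replicate 1 or LPS replicate 2 (adjusted p = 0.142, 0.219 and 0.139).

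**Figure D5:**
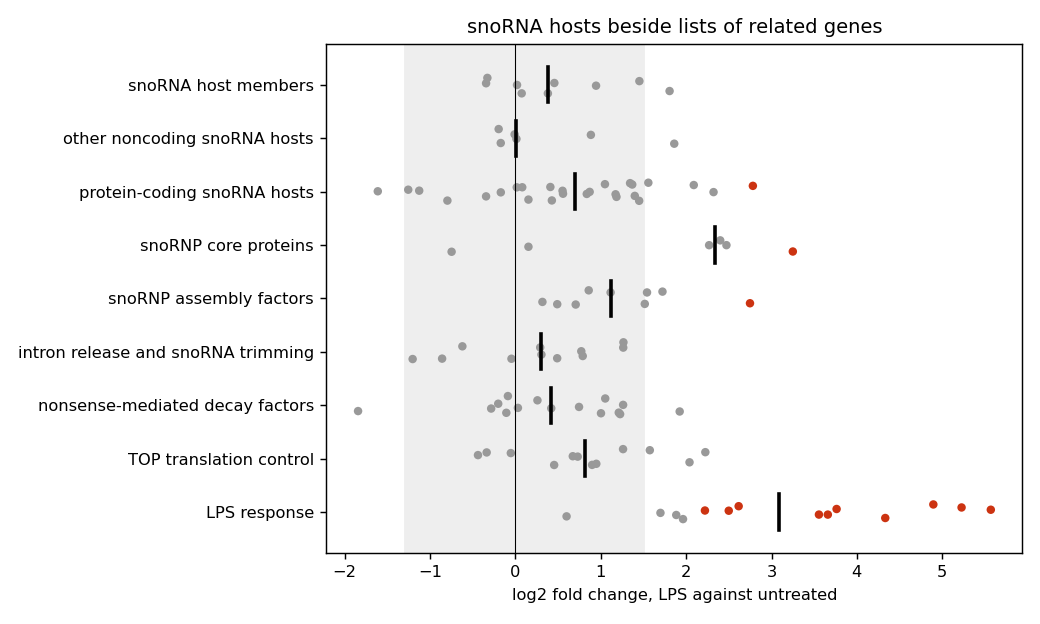
Log2 fold change, LPS against untreated, of each gene of the 9 hosts and of 8 lists of related genes, with called genes in red, the median of a list as a black bar and the middle 90% of all genes tested (-1.29 to 1.51) as a grey band. The hosts have a median of 0.38 and no red point, and the LPS response list has a median of 3.09 and 10 red points.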

How the data were processed

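Values came from RNA sequencing of 6 samples (3 untreated, 3 LPS), grouped by the treatment in the labels. The authors trimmed the reads with fastp, aligned them with STAR to GRCm39 (the labels also name mm10), estimated transcript levels with kallisto and scaled them with edgeR. The deposited values are called normalized counts but were taken as TPM: of 1355 long decimals in untreated replicate 3, 58.3% became values of 5 decimals when multiplied by a whole number up to 60, as means over transcripts would, against 4.21% after the values were shifted. These decimals end at row 16999, and 8 members lie in the 21740 rows after it, printed with fewer digits. Depth is unknown, so no counting interval was given and no count test was run.

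Genes above 0 in any sample were tested with limma 3.58.1 (R 4.3.3; lmFit, eBayes with a trend, two-sided, no covariates) on log2(value + 1), with Benjamini-Hochberg adjustment over 23049 genes. Before use the code was tested on simulated data. All members were named, with all other noncoding hosts and head-to-head neighbours above 0, snoRNAs above 0, and from each other list the called genes (at most 4 per direction) or else the largest change in each direction; Rcc1 and Sgk3 were added after their values were seen. Members and lists were chosen with earlier results of these data known. Marker lists also cover mast cells (summed scaled TPM 25.7 to 85.1 untreated, 83.1 to 132 LPS), eosinophils (3.10 to 8.52 and 2.02 to 5.31, Epx at 0 in all samples) and dendritic cells (15.2 to 36.6 and 35.8 to 67.7). Coordinates are from GENCODE M39 (36572 genes matched), start sites from RefSeq, and shared sequence (at least 95% identity over 150 bases) from blastn 2.17.0.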

Additional observations from a re-analysis of the deposited data

How the results depend on the processing

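For all genes, the count called higher (389) and lower (301) was 856 and 493 with a pseudocount of 0.1, 129 and 168 with 5, 796 and 146 with the same sum over all genes, 220 and 522 with the same sum over protein-coding genes, 206 and 218 at an adjusted p under 0.05, and 2370 and 1535 at an unadjusted p under 0.05, and 260 to 463 and 263 to 394 when 1 sample was left out. For the hosts, 0 were called higher, except 1 at an unadjusted p under 0.05 and 1 without replicate 2 of both groups, a setting added once the data had been seen, and 0 were called lower under any setting. Their median log2 fold change of 0.38 was 0.05 to 0.78 over the alternatives, among which the filters on the mean left out some hosts. Over the 84 genes of the lists other than LPS response, 3 called higher became 1 with a pseudocount of 5, 9 with the same sum over all genes, 1 at an adjusted p and 22 at an unadjusted p under 0.05, and 1 to 10 when 1 sample was left out (10 without untreated replicate 1, 1 without LPS replicate 1 or 3). None called lower became 1 with the same sum over protein-coding genes, 1 with median centring, 1 at an adjusted p, 5 at an unadjusted p under 0.05, and 0 to 1 when 1 sample was left out (1 without untreated replicate 2). The median log2 fold change of the genes above 0 in all samples moved by 0.29 with the same sum over all genes. It moved by -0.17 with the protein-coding sum and -0.20 with centring. With filters at a mean of 1 and 5, which left only part of these genes, it moved by 0.15 and 0.22. Signs reversed with the protein-coding sum for Gas5 (-0.44), Snhg6 (-0.31) and Snhg14 (-0.14), with centring for Gas5 (-0.18), Snhg6 (-0.13) and Snhg14 (-0.19), with quantile normalization for Snhg14 (-0.10), and with the same sum over all genes for Snhg5 (0.0048) and Snhg12 (0.16). When 1 sample was left out, the log2 fold change was -0.26 to 0.33 for Gas5 (below 0 without LPS replicate 1, LPS replicate 3 or untreated replicate 3), -0.42 to 0.90 for Snhg3 (below 0 without untreated replicate 1), -0.34 to 0.60 for Snhg6 (below 0 without LPS replicate 1, LPS replicate 3 or untreated replicate 2), -0.68 to 0.066 for Snhg12 (above 0 without untreated replicate 3), -0.39 to 0.19 for Snhg10 (above 0 without untreated replicate 2, and 0.29 without replicate 2 of both groups), -0.042 to 0.061 for Snhg14 (below 0 without untreated replicate 3 or LPS replicate 2) and -0.020 to 0.00015 for Rian (above 0 without untreated replicate 2). The cause of these changes was not tested. The replicate numbers were not taken as pairs (correlation of the deviations 0.0935, 0.199 and 0.0835 for numbers 1 to 3, although each sample correlated best with its own number), and a fit with that number as a block called 387 genes higher and 303 lower, 0 hosts in either direction, and 8 genes of the lists higher and 0 lower. Under the block Snhg15 had an unadjusted p = 0.0626 and an adjusted p = 0.356 in limma. The number of reads is unknown. With 3 samples per group the 95% intervals of single hosts reached down to -1.54 (Snhg12) and up to 3.50 (Snhg8) on the log2 scale. Where the interval of a host included 0, a change within that interval could not be told from none.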
